A study of Mus musculus with 15 samples.

Results

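The response to myocardial infarction that 2 populations of cells from the injured mouse heart had in common was examined by setting both against fibroblasts of uninjured hearts. CF are cardiac fibroblasts of unstressed wild-type hearts, aCF are activated cardiac fibroblasts taken 5 days after infarction, and EpiSC are epicardial stromal cells taken 5 days after infarction. Each group held 5 arrays, so 10 infarct arrays, with each population weighted equally, were compared with 5 CF arrays, 15 of the 15 arrays of the series. All mice were C57BL/6 aged 8 to 12 weeks. A probe set was counted as having moved the same way when the combined comparison passed limma's moderated test after Bonferroni adjustment over all rows at 0.05 and both population means lay on the same side of the CF mean. Of 22206 probe sets 858 did so, 581 higher and 277 lower in both populations. The choice of 5 marker genes (Tnc, Cdh3, Cemip, Aurkb and Tpm2) and of the gene lists was made with earlier results of these data known.

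Hearts were perfused with collagenase on a Langendorff apparatus. From infarcted hearts, gentle shear in the same step freed the EpiSC from the surface, and the aCF came from the ventricles after the atria, coarse debris and muscle cells had been removed. Uninjured hearts were digested without shear, so infarction and the shear step went together in both infarct groups, and for EpiSC the cell type differed from CF as well. These cannot be told apart. RNA was measured in bulk on whole-transcript arrays from 1 ng per sample, so fewer cells of a type and less RNA per cell cannot be told apart either. The labels call the arrays of a group biological replicates and do not say whether an aCF and an EpiSC array with the same number came from 1 heart.

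The values are log2 expression after subtraction of the middle value of the 15 arrays for each probe set. A value of 0 is therefore the middle of these arrays and not an absence of signal, and whether a marker gene was present in a group at all cannot be read. The base of the logarithm is inferred. Gene names rest on an inference too: identifiers and values of the deposited table were displaced by 6900 rows (6903 on chromosomes 10 and 11), which no source states and which was worked out from the values. After this pairing 13513 genes have a name and a value. On chromosome 11, 982 of 1629 identifiers were paired, set by their order in the table and not by position on the chromosome. The rest of chromosome 11 and genes of chromosomes 12 to 19, Acta2 among them, were not analysed here. The counts over all probe sets are the same without this pairing. Everything told by gene name rests on it, including the numbers of named rises and falls, the counts and medians of the gene lists, and the promoter shares.

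Fibroblasts of the adult heart are normally quiescent cells that keep up the collagen network. After infarction they are known to divide, to lay down a provisional matrix rich in fibronectin and tenascin, and to take on contractile proteins on their way to myofibroblasts. The epicardium, the outer cell layer of the heart, is reactivated in the same period, and the cells derived from it form a stromal layer over the injured surface. Cell division itself runs on a set of genes switched on late in the cycle, whose products condense chromosomes, build the spindle and split the cell.

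In the combined comparison 861 of 22206 probe sets passed (3.88%). Those higher in both populations made up 2.62% of all probe sets and those lower in both 1.25%, and 3 probe sets passed with the populations on opposite sides of CF. These were Rdh10, chosen after its values were seen, Itga11, and a probe set with no name. The median rise was 1.01 on the log2 scale and the largest 4.67, and the median fall was -0.98 and the largest -2.98, against a median of -0.01 over all probe sets. Both populations differed from CF by at least 1 log2 unit, a 2-fold difference, for 193 of the rises and 85 of the falls. A stricter count, in which aCF and EpiSC each passed on their own against the same CF arrays, gave 217 rises and 56 falls, together 1.23% of probe sets. All 10 infarct arrays lay above all 5 CF arrays for 527 of the 581 rises and below them for 257 of the 277 falls. Over all probe sets such separation was seen upward in 4.85% and downward in 4.3%, and the same arrays made the calls, so nothing is read from these counts. At the edge of the threshold stood Spink2, just inside (1.88 ± 0.25, SE, adjusted p = 0.04997), and Mvb12a, just outside (0.64 ± 0.085, adjusted p = 0.05029). A name was available for 451 of the rises and 215 of the falls. Both counts were lowest without a CF array, and the falls shrank more in proportion. Without CF1, CF2, CF3, CF4 and CF5 in turn, 156, 150, 147, 183 and 162 probe sets were lower in both. The rises in the same order were 433, 416, 413, 458 and 465. Over omissions of 1 infarct array the falls stayed between 200 and 294 and the rises between 496 and 546. Without aCF4 and aCF5 160 were lower and 418 higher.

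**Figure D1:**
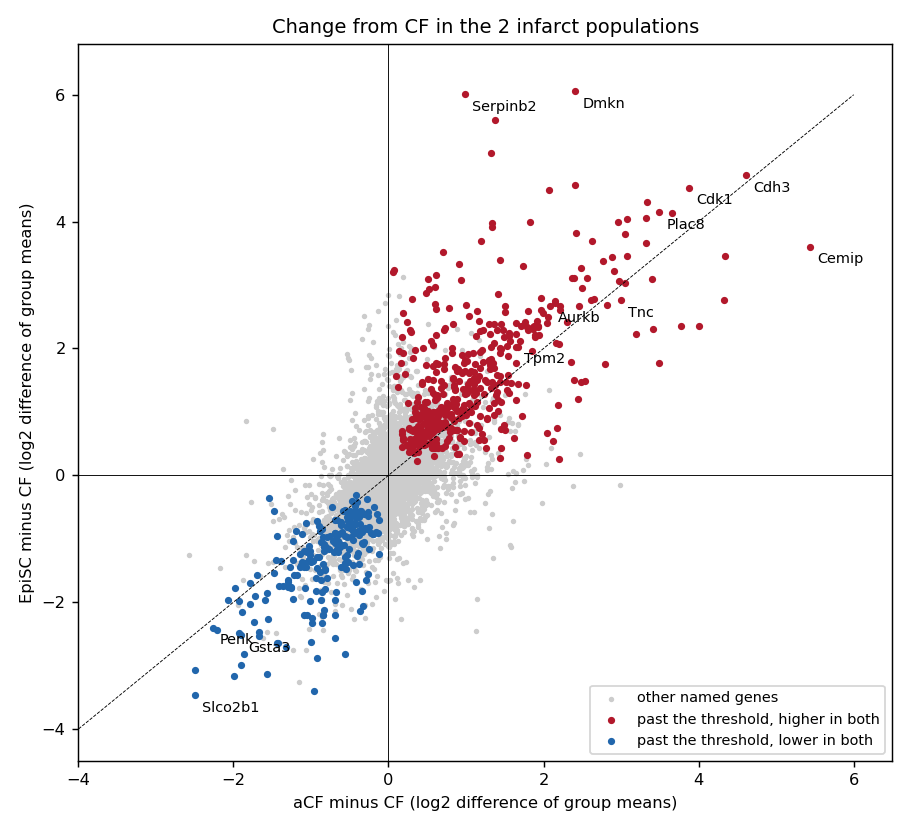
Each point is a named gene, placed by the difference of its aCF mean from CF (horizontal axis, log2) and of its EpiSC mean from CF (vertical axis, log2), with 5 arrays per group. Red points are genes past the threshold and higher in both populations, blue points those lower in both, grey points all others, and the dashed line marks equal differences. Cdh3 lies close to the line at 4.62 and 4.73, Cemip lies on the aCF side of it at 5.44 and 3.60, and Serpinb2 far on the EpiSC side at 0.99 and 6.00. Both axes use the same CF arrays.

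The 5 marker genes stood apart from CF in both populations. Tnc, on chromosome 4, encodes tenascin-C, a matrix glycoprotein of wounds. It read -2.58, -2.71, -2.93, -2.49 and -3.02 in the CF arrays, 0.26, 0.22, 0.25, 0.28 and 0.27 in aCF, and -0.02, 0.00, 0.01, 0.24 and -0.16 in EpiSC. No infarct array came within 2 log2 units of a CF array, and the 5 aCF arrays agreed closely with each other. The combined difference was 2.88 ± 0.084 (SE), or 7.37-fold, with an adjusted p of 7.95e-11.

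Cdh3, on chromosome 8, encodes P-cadherin, a calcium-dependent adhesion molecule best known from epithelia. Its CF values were -4.37, -4.72, -4.24, -4.67 and -4.77, its aCF values 0.04, 0.00, -0.17, 0.11 and 0.33, and its EpiSC values 0.23, 0.46, 0.07, 0.28 and -0.17. The aCF and EpiSC ranges overlapped, and both lay far above CF. At 4.67 ± 0.115, 25.5-fold, this was the largest rise of all probe sets that moved the same way (adjusted p = 6.58e-12). EpiSC and aCF differed by 0.11 log2 units, with a 95% interval from -0.17 to 0.40.

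Cemip, on chromosome 7, encodes a protein needed for the breakdown of hyaluronan in the matrix. The CF arrays read -3.14, -3.12, -3.47, -3.20 and -3.19, the aCF arrays 1.90, 2.31, 1.90, 2.54 and 2.41, and the EpiSC arrays 0.08, -0.03, 0.00, 1.87 and -0.02. EpiSC4 lay near the aCF range while the other 4 EpiSC arrays lay about 2 units below it. The combined rise was 4.52 ± 0.261 (22.9-fold, adjusted p = 1.12e-06). The lower EpiSC value, a difference of -1.83 (95% interval -2.48 to -1.19), did not pass the adjusted threshold (adjusted p = 0.568).

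Aurkb, on chromosome 11, encodes the Aurora B kinase of the chromosomal passenger complex, which corrects spindle attachments. Values of -2.28, -2.11, -2.19, -1.88 and -2.02 in CF stood against 0.18, -0.20, 0.00, -0.06 and 0.04 in aCF and 0.60, 1.13, 0.27, 0.68 and 0.20 in EpiSC. Every infarct array was above every CF array, and the EpiSC arrays were above the aCF arrays. The rise was 2.38 ± 0.127 (adjusted p = 3.92e-07).

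Tpm2, on chromosome 4, encodes beta-tropomyosin, which lies along actin filaments. The CF values were -1.54, -1.48, -1.35, -1.33 and -1.65, the aCF values -0.20, 0.00, -0.14, 0.68 and 0.56, and the EpiSC values 0.48, 0.51, 0.48, 0.86 and 0.42. Within aCF the arrays fell apart, with aCF4 and aCF5 at the EpiSC level and the other 3 below it. The combined difference was 1.83 ± 0.139, or 3.57-fold (adjusted p = 4.28e-05). Each of the 5 markers also passed in aCF alone and in EpiSC alone, and each kept its call when any array was left out.

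**Figure D2:**
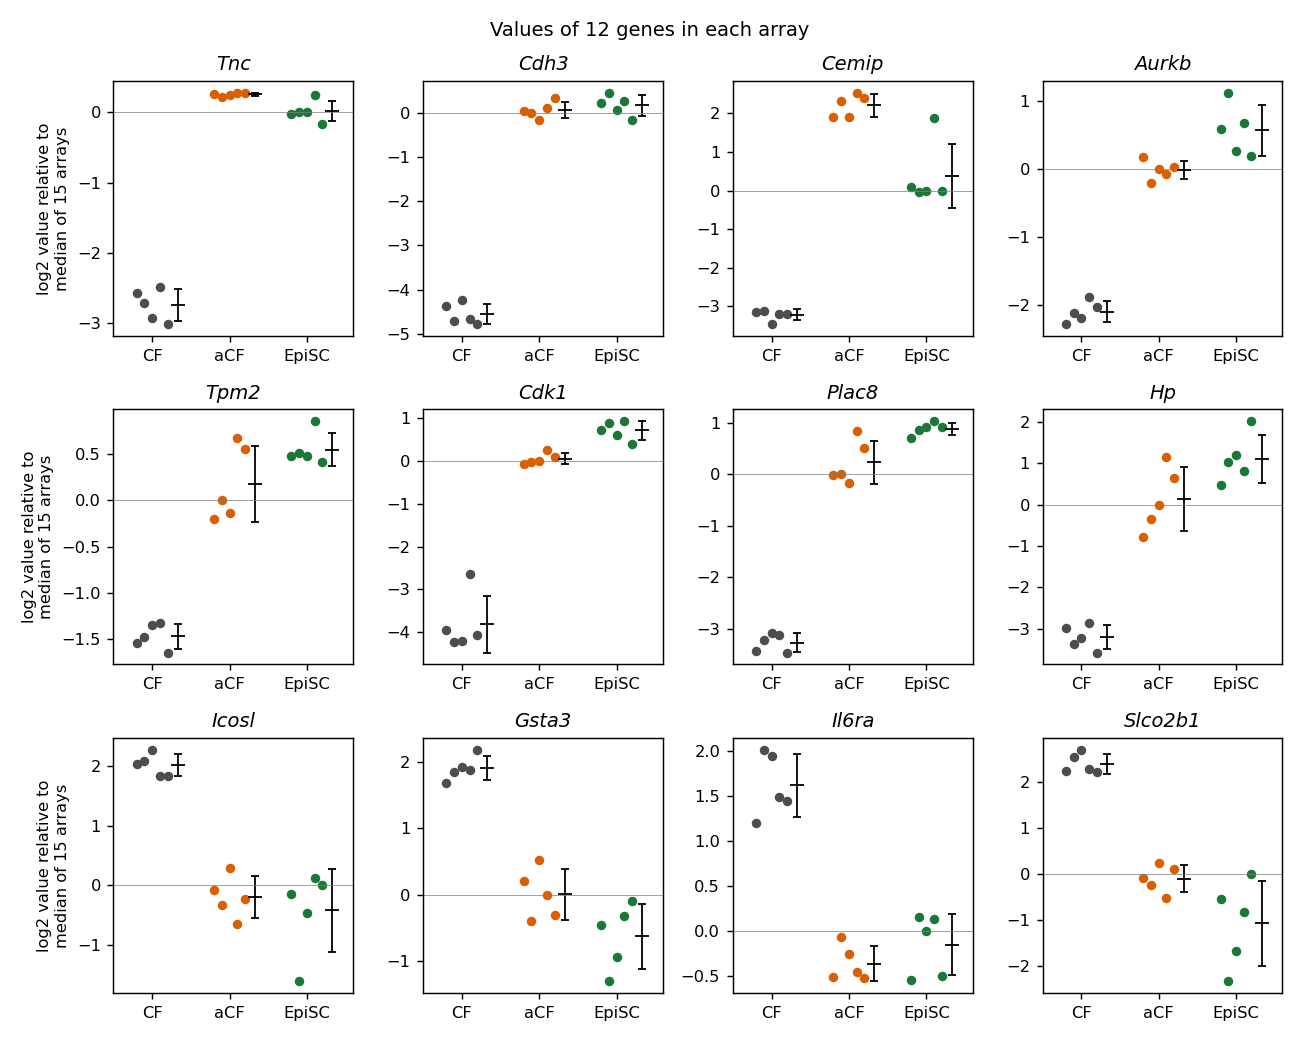
Values of 12 genes in each of the 15 arrays (vertical axis, log2 relative to the gene's median over the arrays), with CF in grey, aCF in orange and EpiSC in green. Horizontal and vertical bars give the mean and SD of the 5 arrays of a group. For the 8 genes of the first 2 rows all infarct arrays lie above all CF arrays, and for the 4 genes of the bottom row all lie below them. The vertical scales differ between panels.

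Genes of mitosis rose almost as a whole. Of 50 measured members of the mitosis and spindle list, 42 were higher in both populations and 0 were lower, against 2.62% and 1.25% of all probe sets. The median combined difference over the 50 was 1.96 log2 units, and for 31 members each population passed alone. For 42 of 42 the infarct arrays did not overlap CF, as for 527 of all 581 rises, and the same arrays made the calls. The largest rise was that of Cdk1, the kinase that drives entry into mitosis. Its CF arrays read -3.94, -4.23, -4.20, -2.65 and -4.07, its aCF arrays -0.07, -0.02, 0.00, 0.26 and 0.10, and its EpiSC arrays 0.73, 0.89, 0.61, 0.93 and 0.40. The infarct groups were tight and apart from each other, and CF4 stood above the other CF arrays. Cdk1 rose by 4.20 ± 0.208, an 18.4-fold difference (adjusted p = 1.3e-07).

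Fam83d, whose product positions chromosomes on the spindle, rose by 3.90 ± 0.211 (adjusted p = 4.53e-07). Its CF values were -3.93, -3.78, -3.83, -3.67 and -2.61, with the other 10 arrays between -0.28 and 1.15. Plk1, a kinase that matures centrosomes, rose by 3.69 ± 0.192 (12.9-fold, adjusted p = 2.67e-07) from CF values of -3.65, -3.86, -3.44, -2.43 and -3.66. CF4 was again the highest of the 5 CF arrays, as it was for the proliferation antigen Mki67 (-2.71, -2.58, -2.58, -1.18 and -2.96 in CF), a gene chosen after its values were seen. Mki67 rose by 2.72 ± 0.235 (adjusted p = 0.000245). Covariation of cell cycle genes within groups was used to pair names with values, so nothing is read from CF4 being high in several of them.

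The lowest adjusted p in the list belonged to Cdca3, which triggers mitotic entry, and Ccna2, the cyclin A2 partner of Cdk1. Cdca3 read -2.05, -2.72, -2.37, -2.18 and -2.40 in CF, -0.06, 0.05, 0.00, -0.04 and 0.29 in aCF, and 0.82, 0.91, 0.51, 0.75 and 0.87 in EpiSC. Its rise of 2.75 ± 0.101 had an adjusted p of 2.03e-09. Ccna2 read -2.13, -2.06, -2.12, -1.67 and -1.63 in CF, and rose by 2.13 ± 0.0906 (adjusted p = 1.56e-08). In both genes the order of the groups was CF, aCF, EpiSC with no overlap.

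The other 8 measured members did not pass. Among them Bub1, a spindle checkpoint kinase, had a difference of 1.84 ± 0.286 (adjusted p = 0.304), with aCF4 at -1.10 while the other aCF arrays lay between 0.00 and 0.39. At the low end Smc4, a condensin subunit, differed by -0.05 ± 0.0987. Its sign turned under quantile normalization and when aCF4 and aCF5, or CF1, were left out. EpiSC lay above aCF in 41 of the 42 members that rose, but 0 of these differences passed limma's test between the populations, which 1.66% of all probe sets did. At an unadjusted p under 0.05 32 of the 42 differed. The share of all probe sets at that level is not given here, so nothing is read from this count. Median values of the list were -1.77 to -1.33 in the CF arrays, -0.03 to 0.06 in aCF and 0.29 to 0.70 in EpiSC.

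Promoter sequences are shown for 4 of the mitotic genes named above, since late cell cycle genes are known for 2 short elements near their starts, the CCAAT box and the cell cycle homology region (CHR). The sequences are the 120 bases before the annotated start from RefSeq (GRCm38.p6), written 5′ to 3′ on the gene's strand. Capitals mark CCAAT (or ATTGG on the other strand) and the CHR letters TTTGAA or TTCGAA (or TTCAAA on the other strand).

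Cdk1 (chr10:69352913-69353032, minus strand): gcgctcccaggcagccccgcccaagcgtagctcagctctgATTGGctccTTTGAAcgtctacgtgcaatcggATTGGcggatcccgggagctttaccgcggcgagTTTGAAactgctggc
Fam83d (chr2:158767979-158768098, plus strand): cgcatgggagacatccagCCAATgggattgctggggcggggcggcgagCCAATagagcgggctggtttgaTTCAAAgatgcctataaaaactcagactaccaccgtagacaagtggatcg
Plk1 (chr7:122159315-122159434, plus strand): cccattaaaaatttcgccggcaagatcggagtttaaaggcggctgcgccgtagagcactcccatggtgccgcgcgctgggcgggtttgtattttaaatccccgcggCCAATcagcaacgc
Cdca3 (chr6:124830056-124830175, plus strand): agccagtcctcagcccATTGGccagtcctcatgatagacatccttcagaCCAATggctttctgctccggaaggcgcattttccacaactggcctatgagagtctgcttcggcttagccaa

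Cdk1 holds both elements, with CHR letters beginning 71 and 15 bases before the start and CCAAT at 80 and 48. Fam83d holds CHR letters at 50 bases and CCAAT at 102 and 72, Plk1 holds CCAAT at 14, and Cdca3 holds CCAAT at 104 and 71. The same stretch is shown for 2 markers that are not cell cycle genes, Tnc (the first of 2 listed starts) and Cemip, and it holds neither element. Other rises outside the cell cycle lists did hold them: Palld had CHR letters 91 bases before 1 of its 3 listed starts, and Plac8 had CCAAT 94 bases before 1 of its 2.

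Tnc (chr4:64047016-64047135, minus strand): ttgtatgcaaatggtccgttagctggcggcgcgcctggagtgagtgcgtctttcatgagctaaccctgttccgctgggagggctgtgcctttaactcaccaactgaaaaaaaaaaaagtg
Cemip (chr7:84086506-84086625, minus strand): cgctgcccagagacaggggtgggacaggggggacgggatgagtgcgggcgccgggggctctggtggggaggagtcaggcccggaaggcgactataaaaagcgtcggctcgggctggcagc

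Over the 250 bases before the start, searched on both strands, 28 of the 38 mitotic rises with a listed promoter held CCAAT (73.7%) and 16 held the CHR letters (42.1%). Of the 11283 genes with a value and a listed promoter, 35.4% held CCAAT and 15.5% the CHR letters. Both elements stood in 36.8% of the mitotic rises, in 9.01% of the 322 rises outside the mitosis and replication lists, and in 1.78% of the 169 falls, against 5.90% of all 11283. These shares describe letters in a window, and a match is not a bound site.

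Of 35 measured DNA replication genes 11 were higher in both and 0 lower, with a median difference of 0.65. Here and for every later list, the shares over all probe sets were 2.62% higher in both and 1.25% lower. With the infarct arrays fitted as 1 group, 3 were higher. E2f8, a repressor of the E2F family that is itself made in S phase, had the largest rise, 3.16 ± 0.152 (adjusted p = 8.69e-08). It read -2.79, -2.80, -2.78, -2.15 and -2.56 in CF, 0.37, 0.00, -0.62, 0.32 and -0.01 in aCF, and 1.17, 0.92, 0.96, 1.02 and 1.34 in EpiSC. Gins2, a subunit of the replicative helicase, rose by 1.66 ± 0.0874 (adjusted p = 3.03e-07). It was farther from CF in EpiSC (2.19) than in aCF (1.13), a difference of 1.06 ± 0.101 between the populations that passed (adjusted p = 0.000858). Gins1, another subunit, had a difference of 1.35 ± 0.213 that did not pass (adjusted p = 0.355), and Pola1, a polymerase subunit, was lowest at -0.18 ± 0.147.

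**Figure D3:**
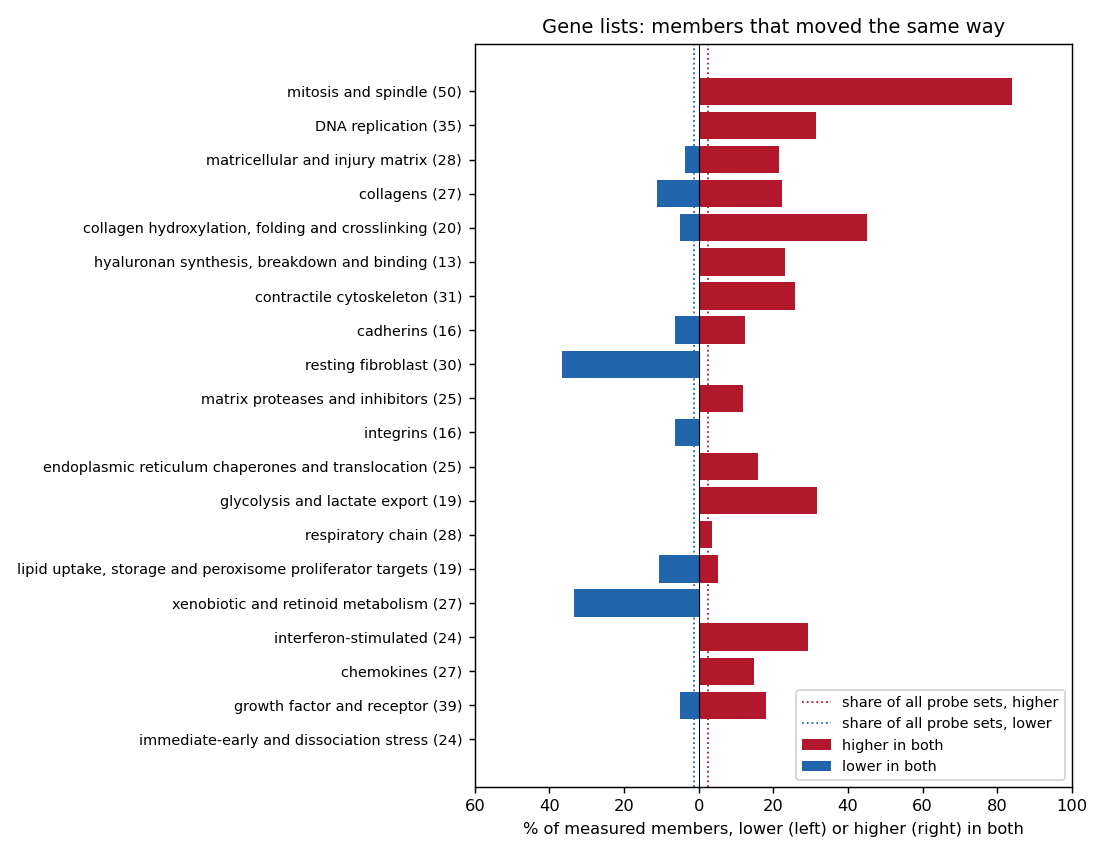
Bars give the share of each list's measured members that were past the threshold and higher in both populations (right, red) or lower in both (left, blue), in percent, with the number measured beside each list's name. Dotted lines mark the same shares over all 22206 probe sets, 2.62% and 1.25%. Mitosis and spindle has 42 of 50 members on the right, and resting fibroblast has 11 of 30 on the left.

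Of 28 measured members of the matricellular and injury matrix list 6 were higher in both and 1 lower, with a median combined difference of 0.38. The median difference from CF was 1.09 in aCF and 0.02 in EpiSC. Beside Tnc these rises were Fn1, Postn, Sfrp2, Ncam1 and Ecrg4, the last 4 of them chosen after their values were seen. Fn1, which encodes fibronectin, read -0.97, -1.15, -1.12, -1.09 and -0.95 in CF, 0.24, 0.23, 0.17, 0.28 and 0.26 in aCF, and -0.10, 0.05, 0.06, 0.00 and 0.00 in EpiSC. The groups lay in the order CF, EpiSC, aCF without overlap, and the rise was 1.18 ± 0.0473 (2.26-fold, adjusted p = 7.31e-09). Postn (periostin) rose by 0.96, Sfrp2, a Wnt-binding protein, by 1.83, Ncam1, an adhesion molecule, by 2.13 and Ecrg4 by 2.63. In each population alone these 6 genes passed too.

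Spon1, which encodes the matrix protein spondin-1, was the fall (-1.50 ± 0.172, adjusted p = 0.00918). Its call was lost in 2 of 15 omissions (without CF2 or CF4), without aCF4 and aCF5 together, and under quantile normalization, where 10 members of the list rose and 0 fell. The Spon1 call was lost too with the array number fitted as a block, with same-numbered infarct arrays averaged, and with the infarct arrays as 1 group. Tnn, the tenascin-W gene, had a difference of 1.35 ± 0.209 that did not pass (adjusted p = 0.285).

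Of 27 measured collagen genes 6 were higher in both and 3 lower, and the median difference was -0.04. Col1a1 and Col1a2, the chains of type I collagen, rose by 1.06 ± 0.0571 (adjusted p = 4.16e-07) and 1.09 ± 0.0608 (adjusted p = 7.14e-07). Col1a1 read -0.89, -0.99, -1.09, -0.83 and -1.10 in CF, 0.22, 0.16, 0.18, 0.25 and 0.20 in aCF, and -0.20, 0.01, -0.07, 0.00 and 0.07 in EpiSC. Here too aCF lay highest, with EpiSC between it and CF. The other rises, apart from Col11a1, were Col3a1, Col5a2 and Col24a1, named after their values were seen. Col11a1, a fibrillar collagen best known from cartilage, rose most (2.01 ± 0.23, adjusted p = 0.00894), with aCF at 2.54 and EpiSC at 1.48 from CF. It lost its call without CF3, CF4 or CF5, and without aCF4 and aCF5 together.

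The falls were the basement membrane chains Col4a3 (-2.21 ± 0.246, adjusted p = 0.00626) and Col4a4 (-0.91) and the basement membrane zone collagen Col15a1 (-0.97), of which the last 2 were named after their values were seen. Col4a3 read 1.83, 1.55, 1.63, 1.63 and 1.34 in CF, 0.00, 0.19, 0.30, -1.41 and -0.77 in aCF, and -0.40, -1.04, -1.43, -0.71 and -0.88 in EpiSC. All CF arrays were above all infarct arrays, with aCF4 and aCF5 below the other aCF arrays. Col10a1 differed by -0.77 ± 0.194, which did not pass (adjusted p = 1).

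Of 20 measured enzymes and chaperones that process collagen 9 were higher in both and 1 lower, with a median of 0.43. P4ha3, a prolyl 4-hydroxylase subunit, read -2.33, -2.32, -2.26, -2.32 and -2.54 in CF, 0.90, 1.00, 0.62, 1.48 and 1.3 in aCF, and -0.50, 0.00, -0.16, 0.34 and 0.09 in EpiSC. The groups did not overlap, and the rise was 2.86 ± 0.14, or 7.27-fold (adjusted p = 1.17e-07). Serpinh1, the collagen chaperone HSP47, rose by 0.74 ± 0.0502 (adjusted p = 1.04e-05) and by nearly the same amount in aCF (0.79) and EpiSC (0.68), with a 95% interval of their difference from -0.23 to 0.02. Colgalt2, which adds galactose to collagen, fell by 2.34 on the log2 scale (SE 0.243, adjusted p = 0.00264). Its CF values were 1.86, 1.85, 1.95, 1.88 and 1.84, and EpiSC3 at -2.23 lay far below the other EpiSC arrays (-0.73 to -0.48). Pcolce2, an enhancer of collagen cleavage, had a difference of -0.73 ± 0.119 that did not pass (adjusted p = 0.544).

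Genes of hyaluronan handling passed in 3 of 13 measured members, all upward, with a list median of 0.15. Beside Cemip these were Hmmr, a hyaluronan receptor that is also in the mitosis list (2.05, named after its values were seen), and Cd44, the main hyaluronan receptor. Cd44 read -0.87, -1.04, -0.74, -0.54 and -0.96 in CF, 0.00, -0.11, 0.10, 0.60 and -0.21 in aCF, and 2.6, 2.61, 2.52, 2.02 and 2.79 in EpiSC. No groups overlapped. Its combined rise was 2.12 ± 0.14 (adjusted p = 6.96e-06), but aCF alone differed by 0.91 ± 0.162 (adjusted p = 1), and EpiSC exceeded aCF by 2.43 ± 0.162 (adjusted p = 7.7e-06). Tnfaip6, a hyaluronan-binding protein of inflammation, had a combined difference of 1.11 ± 0.155 (adjusted p = 0.093), and Has3, a synthase, of -0.11 ± 0.0605.

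Of 25 matrix proteases and inhibitors 3 were higher in both and 0 lower, with a median of 0.09. Timp1, an inhibitor of metalloproteinases, read -2.50, -2.03, -2.03, -1.80 and -1.87 in CF, 0.02, -0.10, -0.25, 0.07 and 0.00 in aCF, and 0.71, 0.53, 0.34, 0.58 and 0.44 in EpiSC, in that order without overlap. It rose by 2.28 ± 0.101 (4.86-fold, adjusted p = 2.97e-08). Adam12, a membrane disintegrin and protease of activated stromal cells, rose by 3.26 ± 0.153 (9.60-fold, adjusted p = 6.3e-08). Its CF arrays read -3.10, -3.00, -3.45, -2.70 and -2.92 and its infarct arrays lay between -0.37 and 0.64. The third was Mmp23 (0.44), named after its values were seen. Adamts4, an aggrecanase, had a difference of 1.49 ± 0.225 that did not pass (adjusted p = 0.218), and Reck, a membrane inhibitor of metalloproteinases, of -1.31 ± 0.181 (adjusted p = 0.0789).

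Contractile genes rose in part. Of 31 measured members 8 were higher in both and 0 lower, with a median of 0.18, and Acta2, the usual myofibroblast marker, was not analysed here. The largest rise was in Actg2, an actin of visceral smooth muscle. It read -3.35, -3.02, -2.98, -2.88 and -3.34 in CF, -0.70, 0.26, -0.79, 1.24 and 1.00 in aCF, and 0.93, 0.00, 0.21, 1.37 and 0.23 in EpiSC. The infarct arrays spread over about 2 log2 units, all above CF. The rise was 3.49 ± 0.326 (11.2-fold, adjusted p = 0.000695), and it did not pass under quantile normalization (adjusted p = 0.06952).

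Palld, whose product palladin cross-links actin bundles, was far steadier. Its values were -3.06, -3.50, -3.43, -2.72 and -2.82 in CF, 0.21, 0.30, 0.13, 0.38 and 0.44 in aCF, and -0.15, 0.00, 0.01, 0.20 and -0.11 in EpiSC. It rose by 3.25 ± 0.119 (9.49-fold, adjusted p = 2.02e-09), and the 95% interval of EpiSC minus aCF ran from -0.60 to -0.01. Csrp2, a LIM protein of smooth muscle, rose by 1.44 ± 0.0729 (adjusted p = 1.81e-07). Tagln (SM22) rose by 2.07 ± 0.138 (adjusted p = 7.99e-06) and Cnn1 (calponin) by 3.02 ± 0.321 (adjusted p = 0.00351).

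In aCF4, aCF5 and EpiSC4, Cnn1 read 1.43, 1.12 and 1.85, and in the other 7 infarct arrays it lay between -0.43 and 0.53. Myl9, a regulatory myosin light chain, had a difference of 0.82 ± 0.165 that did not pass (adjusted p = 1). Itga11, a collagen-binding integrin counted in this list too, stood at 0.09 in aCF and -1.94 in EpiSC from CF and so did not move the same way.

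Among 16 measured cadherins 2 were higher in both and 1 lower, with a median of 0.01. Next to Cdh3 stood Cdh11, the cadherin of mesenchymal cells, at -1.05, -1.39, -1.17, -1.36 and -1.34 in CF, 0.15, 0.21, 0.05, 0.00 and -0.03 in aCF, and 0.27, 0.57, 0.48, 0.03 and -0.30 in EpiSC. The infarct groups overlapped each other and lay above CF. It rose by 1.41 ± 0.119 (2.65-fold, adjusted p = 0.00019), and EpiSC and aCF differed by 0.13 with a 95% interval from -0.16 to 0.43. Cdh19, a cadherin of Schwann cells, had a difference of -2.20 ± 0.346 that did not pass (adjusted p = 0.345).

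**Figure D4:**
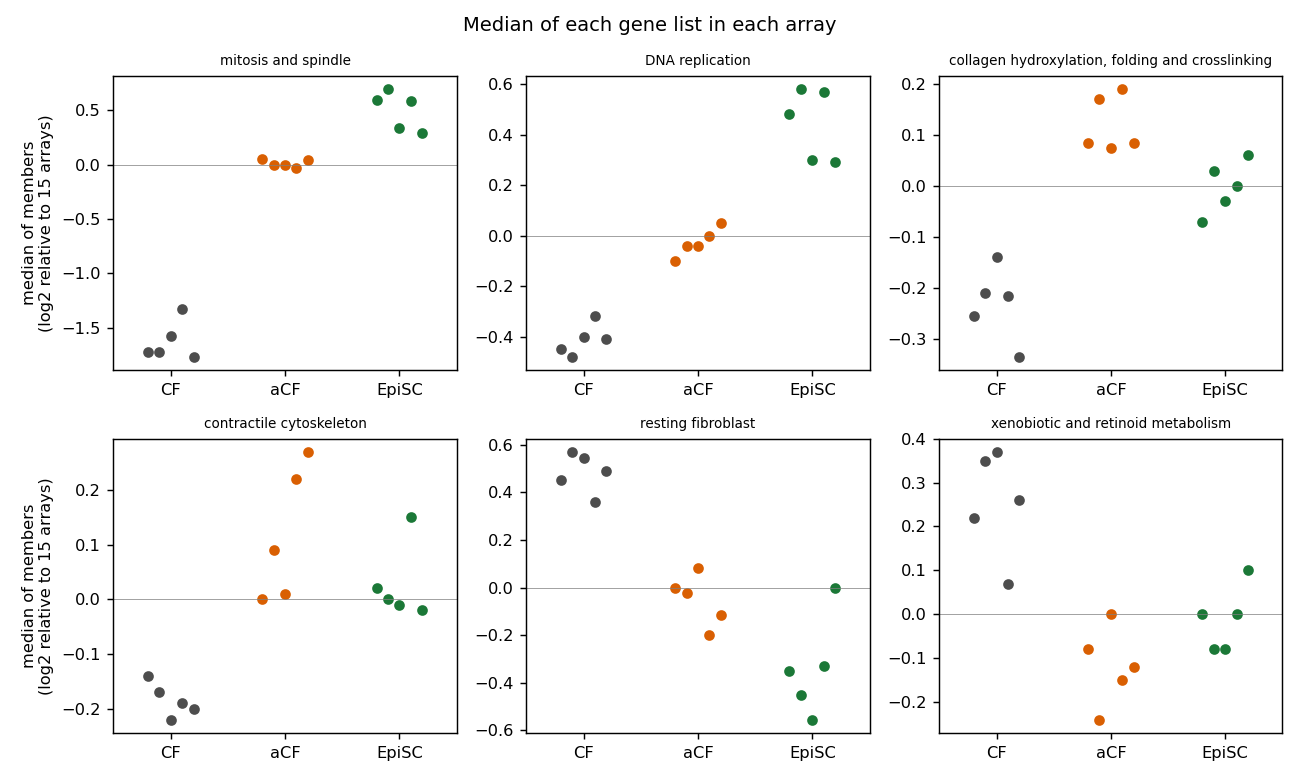
Each point is the median of a gene list's measured members in 1 array (vertical axis, log2 relative to the 15 arrays), by group. For mitosis and spindle the CF arrays lie between -1.77 and -1.33 and all infarct arrays at or above -0.03. For resting fibroblast genes CF lies between 0.36 and 0.57 and the infarct arrays between -0.56 and 0.08. The aCF values near 0 reflect in part that the middle of the 15 arrays is 0 by construction.

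Several of the largest rises lay outside these lists. Plac8, which encodes a small cysteine-rich protein, read -3.43, -3.21, -3.08, -3.12 and -3.46 in CF, -0.01, 0.00, -0.17, 0.83 and 0.50 in aCF, and 0.71, 0.86, 0.91, 1.03 and 0.91 in EpiSC. It rose by 3.82 ± 0.139 (14.1-fold, adjusted p = 1.88e-09). The aCF4 and aCF5 arrays were again nearer to EpiSC than the other aCF arrays were. Hp, which encodes haptoglobin, the haemoglobin-binding protein of the acute phase, showed the same feature. Its values were -2.98, -3.37, -3.22, -2.87 and -3.58 in CF, -0.78, -0.35, 0.00, 1.15 and 0.64 in aCF, and 0.47, 1.03, 1.20, 0.82 and 2.02 in EpiSC. It rose by 3.82 ± 0.292 (14.2-fold, adjusted p = 5.01e-05).

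The probe set annotated to Mir675 lies in the imprinted H19 locus, and whether it measured the microRNA or its host transcript cannot be told apart. It read -3.20, -3.85, -3.47, -3.39 and -3.41 in CF, 0.73, 0.85, 0.70, 1.08 and 0.99 in aCF, and -0.71, 0.00, 0.00, 0.57 and 0.09 in EpiSC. No groups overlapped, and the rise was 3.89 ± 0.16 (14.9-fold, adjusted p = 9.6e-09).

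Il6 and Saa3 were chosen after their values were seen, as acute inflammatory genes. Il6, the cytokine interleukin-6, read -2.80, -2.54, -3.03, -2.63 and -2.23 in CF, 0.05, 0.63, 0.23, 0.42 and 0.00 in aCF, and 0.80, -0.10, -0.28, 1.66 and 0.77 in EpiSC. It rose by 3.06 ± 0.256 (8.36-fold, adjusted p = 0.00016) and to a like size in aCF (2.91) and EpiSC (3.22), with a 95% interval of the difference from -0.33 to 0.94. Il6ra, its receptor subunit, fell. The CF arrays read 1.20, 2.02, 1.95, 1.49 and 1.45, the aCF arrays -0.51, -0.07, -0.26, -0.46 and -0.52, and the EpiSC arrays -0.54, 0.16, 0.00, 0.13 and -0.50. All infarct arrays lay below all CF arrays, and the fall was -1.88 ± 0.156 (3.68-fold, adjusted p = 0.000149). Saa3, serum amyloid A3, rose by 2.63 ± 0.201 (adjusted p = 5.1e-05), mostly in EpiSC (3.91 from CF, against 1.34 in aCF, adjusted p = 0.987).

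Of 39 measured growth factors and receptors 7 were higher in both and 2 lower, with a median of 0.08. Pdgfc, a ligand of the PDGF receptors on fibroblasts, read -2.52, -2.42, -2.62, -2.68 and -1.90 in CF, -0.21, 0.00, -0.45, 0.53 and 0.11 in aCF, and 1.22, 1.55, 1.24, 1.38 and 1.58 in EpiSC. The order CF, aCF, EpiSC held without overlap. It rose by 3.12 ± 0.151 (8.71-fold, adjusted p = 9.53e-08), and EpiSC exceeded aCF by 1.40 ± 0.174 (adjusted p = 0.0249).

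Gdf6, a bone morphogenetic protein, rose by 1.95 ± 0.116 (adjusted p = 1.64e-06), in aCF by 2.40 and in EpiSC by 1.51. Its CF values were -1.72, -1.77, -1.63, -1.41 and -1.46. Tgfbr3, the co-receptor betaglycan, and Igf1r, the IGF-1 receptor (named after its values were seen), were the falls, at -0.82 ± 0.0906 (adjusted p = 0.00556) and -0.76. Under quantile normalization Tgfbr3 lost its call (adjusted p = 0.05716), and without aCF4 and aCF5 3 members of the list were higher. Bdnf, a neurotrophin, had the largest difference that did not pass (1.40 ± 0.19, adjusted p = 0.0669), at 2.47 in aCF and 0.33 in EpiSC from CF.

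Interferon-stimulated genes were higher in both populations for 7 of 24 measured members and lower for 0, with a median of 0.27. With the infarct arrays fitted as 1 group, 2 were higher. Isg15, a ubiquitin-like modifier, read -1.02, -1.22, -1.16, -0.98 and -1.05 in CF, -0.13, 0.00, -0.09, 0.07 and 0.06 in aCF, and 0.27, 0.48, 0.60, 0.53 and 0.91 in EpiSC. The groups were separate, and the rise was 1.36 ± 0.0841 (adjusted p = 2.99e-06). Irf7, the regulator of the interferon response, rose by 1.76 ± 0.114 (adjusted p = 5.23e-06), and by more in EpiSC (2.29) than in aCF (1.22), a difference that passed (adjusted p = 0.0189). Oas2, an antiviral sensor, had a difference of 1.15 ± 0.183 that did not pass (adjusted p = 0.387), and Irf1 one of -0.62 ± 0.104 (adjusted p = 0.713).

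Chemokine genes were higher for 4 of 27 measured members and lower for 0, with a median of 0.08. With the infarct arrays fitted as 1 group, 0 were higher. Cxcl5, a neutrophil attractant, was the clearest case in both populations. It read -1.10, -0.88, -1.44, -1.66 and -0.84 in CF, 0.00, -0.17, -0.38, 0.16 and 0.38 in aCF, and 1.5, 0.83, 0.99, 1.28 and 0.89 in EpiSC. Its rise was 1.73 ± 0.16 (adjusted p = 0.000598), though aCF alone did not pass (1.18 ± 0.185, adjusted p = 0.327).

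Ppbp, a platelet chemokine, counted as moved the same way by its rule (1.63 ± 0.173, adjusted p = 0.00359), yet its aCF mean lay only 0.05 above CF. Cxcl13, a B cell attractant, rose by 3.49 ± 0.403 (adjusted p = 0.00974). It did not pass when CF1, CF2, CF3 or CF5 was left out, or under quantile normalization. The fourth was Ccl27a (0.70), named after its values were seen. Ccl11 (eotaxin) differed by -0.74 ± 0.169 without passing (adjusted p = 1).

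The 10 falls described here were those farthest from CF in both populations among named genes that passed in each population alone, and several act in signalling. Icosl, a costimulatory ligand, read 2.04, 2.09, 2.28, 1.83 and 1.84 in CF, -0.07, -0.33, 0.30, -0.65 and -0.22 in aCF, and -0.15, -1.61, -0.46, 0.12 and 0.00 in EpiSC. All CF arrays were above all infarct arrays, and the fall was -2.32 ± 0.235 (5.00-fold, adjusted p = 0.00188). Ntrk3, the neurotrophin-3 receptor, read 1.41, 1.83, 1.80, 1.84 and 1.86 in CF, with infarct arrays between -0.94 and 0.22, and fell by 2.02 on the log2 scale (SE 0.183, adjusted p = 0.000468). Ret, the GDNF receptor kinase, read 1.82, 1.70, 1.76, 1.98 and 1.39 in CF, with infarct arrays between -0.69 and 0.43. It fell by 1.91 (SE 0.159, adjusted p = 0.000147). For Icosl, Ntrk3 and Ret the 95% interval of EpiSC minus aCF covered 0.

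Prex2, a Rac exchange factor, fell by 2.58 (SE 0.224, adjusted p = 0.000265), with EpiSC farther from CF (-3.16) than aCF (-2.0). Olfml2a, a secreted olfactomedin-like protein, fell by 1.95 (SE 0.145, adjusted p = 3.42e-05) and by the same amount within error in both, the 95% interval of their difference being -0.41 to 0.30. Kcnip1, a potassium channel partner, fell by 2.02 (SE 0.178, adjusted p = 0.000323), and Plekha6 by 2.03 (SE 0.198, adjusted p = 0.00119). The imprinted antisense RNA Kcnq1ot1 fell by 1.81 (SE 0.166, adjusted p = 0.000559). RNA of the gene it overlaps was not told apart from it here. For each of these 10 falls, with Il6ra and Gsta3 among them, every infarct array lay below every CF array, which the rule for naming them required.

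Of 30 measured genes of the resting fibroblast 11 were lower in both populations and 0 higher, against 1.25% and 2.62% of all probe sets, and the median difference was -0.91, or -0.54 in aCF and -0.94 in EpiSC. Only 1 of the 11 passed in each population alone. The count ranged from 5 to 15 over the 15 omissions of an array, and it was 4 without aCF4 and aCF5. It was 4 as well with the infarct arrays as 1 group, and 2 with the array number fitted as a block. The lowest adjusted p belonged to Entpd2, an enzyme that splits extracellular ATP. It read 0.51, 0.50, 0.55, 0.55 and 0.52 in CF, 0.00, 0.04, 0.08, -0.18 and -0.08 in aCF, and -0.93, -1.05, -1.25, -0.98 and -0.51 in EpiSC. The groups were in the order CF, aCF, EpiSC without overlap, and the fall was -1.01 ± 0.0904 (adjusted p = 0.000385).

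Lpl, the lipoprotein lipase, fell by 0.62 (SE 0.0621, adjusted p = 0.00158), a call lost when aCF and EpiSC arrays of the same number were averaged. Ces1d, a carboxylesterase, had the largest fall of the list (-2.78 ± 0.34, adjusted p = 0.0194), and lost its call in 9 of 15 omissions, each of the 5 CF arrays among them. Penk, which encodes proenkephalin and was chosen after its values were seen, fell by 2.33 (SE 0.29, adjusted p = 0.0237). It lost its call in 10 of 15 omissions, those of every CF and every aCF array. Efemp1, a fibulin of elastic tissue, fell by 0.95 (SE 0.108, adjusted p = 0.00785), almost wholly in aCF (-1.54, against -0.36 in EpiSC), and lost its call without CF2, CF3 or CF5. Inmt, a methyltransferase, had a difference of -1.82 ± 0.417 that did not pass (adjusted p = 1), and Mfap4, a microfibril protein, was the member above 0 (0.70 ± 0.111, adjusted p = 0.375).

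Of 27 measured genes of xenobiotic and retinoid metabolism 9 were lower in both and 0 higher, with a median of -0.38. For 4 of the 9 each population passed alone. The count was 5 without aCF4 and aCF5 and between 5 and 9 over the omissions of single arrays. Slco2b1, a transporter of organic anions, had the largest fall of all probe sets that moved the same way. It read 2.23, 2.53, 2.70, 2.27 and 2.21 in CF, -0.10, -0.24, 0.23, -0.53 and 0.10 in aCF, and -0.56, -2.34, -1.68, -0.83 and 0.00 in EpiSC. All infarct arrays lay below all CF arrays, and EpiSC spread widely. The fall was -2.98 ± 0.29 (7.91-fold, adjusted p = 0.00117), and in aCF alone it did not pass (-2.50, adjusted p = 0.0598).

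Gsta3, a glutathione transferase, read 1.68, 1.85, 1.92, 1.88 and 2.18 in CF, 0.21, -0.40, 0.52, 0.00 and -0.31 in aCF, and -0.45, -1.30, -0.94, -0.32 and -0.10 in EpiSC. It fell by 2.21 (SE 0.189, 4.63-fold, adjusted p = 0.000214). Gstt1, of the same enzyme class, fell by 0.93 (SE 0.0638, adjusted p = 1.18e-05). Ces1d belongs to this list as well. Fmo1, a monooxygenase, had a difference of -1.07 ± 0.173 (adjusted p = 0.493), and Aldh1a3, a retinoic acid synthesising enzyme, of 0.83 ± 0.19 (adjusted p = 1).

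Of 16 measured integrins 0 were higher in both and 1 lower, against 2.62% and 1.25% of all probe sets, with a median of 0.01. The fall was that of Itga8, the alpha-8 subunit of stromal cells (-2.02 ± 0.239, adjusted p = 0.0138), whose call was lost on leaving out any of the 5 CF arrays. It was lost too without aCF4 and aCF5 together, with the array number fitted as a block, and with the infarct arrays as 1 group. Itgb4, the hemidesmosome subunit, had the highest value (0.90 ± 0.128, adjusted p = 0.11).

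In lipid metabolism 1 of 19 measured members was higher in both and 2 lower, against 2.62% and 1.25% of all probe sets, with a median of -0.22. With the infarct arrays fitted as 1 group, 0 were higher and 0 lower. Fabp5, a fatty acid carrier, rose by 0.89 ± 0.0929 (adjusted p = 0.00279), and Cd36, the fatty acid translocase, fell together with Lpl. Lipe, the hormone-sensitive lipase, differed by -0.79 ± 0.168 without passing (adjusted p = 1).

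Genes of secretion and energy supply were counted next. Of 25 measured endoplasmic reticulum genes 4 were higher in both and 0 lower, with a median of 0.18. Ssr3, a subunit of the translocon-associated complex, rose by 0.46 ± 0.0492 (adjusted p = 0.00444), and Sec61a1, the translocation channel, by 0.38 ± 0.0436 (adjusted p = 0.00806). Kdelr2, which returns chaperones to the reticulum, rose by 0.59 ± 0.0703 (adjusted p = 0.0134), and the fourth was Sec61b (0.49), named after its values were seen. All 4 calls were lost when aCF and EpiSC arrays of the same number were averaged. The count was 1 without aCF4 and aCF5, and between 1 and 4 over the omissions of single arrays. Rcn1 differed by 0.43 ± 0.0841 (adjusted p = 1) and Os9 by -0.29 ± 0.0755 (adjusted p = 1).

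Glycolysis and lactate export was higher in both for 6 of 19 measured members and lower for 0, with a median of 0.36. With the infarct arrays fitted as 1 group, 0 were higher. Tpi1, triosephosphate isomerase, read -0.48, -0.37, -0.61, -0.37 and -0.33 in CF, 0.00, -0.07, -0.01, 0.13 and 0.07 in aCF, and 0.68, 0.63, 0.62, 0.61 and 0.62 in EpiSC. The groups were separate and EpiSC almost uniform. It rose by 0.76 ± 0.0522 (adjusted p = 1.18e-05), with EpiSC above aCF by 0.61 ± 0.0603 (adjusted p = 0.00147). Slc16a3, the lactate exporter MCT4, rose by 1.11 ± 0.0931 (adjusted p = 0.000169), and aCF alone did not pass (0.49, adjusted p = 1). Pgk1, a kinase of the same pathway, rose by 1.12 ± 0.128 (adjusted p = 0.0091), but did not pass when CF1, CF2 or CF5 was left out, or aCF4 and aCF5 together. Nor did it pass with the array number fitted as a block, with same-numbered infarct arrays averaged, or with the infarct arrays as 1 group.

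For 5 of the 6 glycolytic rises the difference between EpiSC and aCF passed, with EpiSC higher each time. Of all probe sets 1.66% passed that test, and 146 of the 858 that moved the same way. The rises were picked with the same estimate of spread, so the shares are not compared. Hk1, a hexokinase, had a difference of -1.03 ± 0.243 that did not pass (adjusted p = 1). The respiratory chain list had a median of 0.15. Of its 28 measured subunits 0 were lower and 1 was higher, near the 2.62% of all probe sets that were higher. The higher subunit was Cox5a (0.35 ± 0.042, adjusted p = 0.0131), whose call was lost without CF2, CF3, CF4 or CF5, or aCF4 and aCF5 together. The call was lost too with the array number fitted as a block, with same-numbered infarct arrays averaged, and with the infarct arrays as 1 group. Ndufs1 differed by -0.39 ± 0.0814 (adjusted p = 1).

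Immediate-early genes, which collagenase digestion is known to induce, were called in neither direction in limma's test. Of 24 measured members 0 were higher and 0 lower in both, with a median of -0.39. At an unadjusted p under 0.05 4 were above and 13 below CF. The share of all probe sets at that level is not given here, so nothing is read from these counts. Under the stricter Benjamini-Hochberg adjustment 6362 of all 22206 probe sets passed in this comparison. Ier2 differed by -1.07 ± 0.238 (adjusted p = 1) and Dusp6 by 0.84 ± 0.144 (adjusted p = 0.874), and the 2 stood at the ends of the list. Median values of the list were 0.03 to 0.31 in CF, -0.25 to -0.12 in aCF and -0.37 to 0.25 in EpiSC.

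Markers of other cell types were examined beside these results. In the combined comparison 0 of 20 macrophage and monocyte genes, 0 of 12 T, B and NK cell genes, 0 of 20 heart muscle genes and 0 of 8 Schwann cell, adipocyte and red cell genes moved the same way past the threshold in limma's test. Over all probe sets 2.62% rose and 1.25% fell in both, so lists this short would hold few such genes or none. At an unadjusted p under 0.05 these lists held 6, 3, 13 and 5 genes, 12 of the 13 heart muscle genes being below CF. Of all 22206 probe sets 6362 passed the Benjamini-Hochberg adjustment in this comparison. A probe set that passed it also had an unadjusted p under 0.05, but the share of all at that level is not given here. Nothing is therefore read from the counts of 6, 3, 13 and 5. Macrophage genes lay above 0 in 18 of 20 cases, with a median of 0.13, and list medians of -0.22 to 0.02 in the CF arrays, 0.01 to 0.21 in aCF and -0.09 to 0.00 in EpiSC. The largest was Fcgr3 (1.22 ± 0.208, adjusted p = 0.812). Heart muscle genes had a median of -0.35, with Myl2 lowest (-1.99 ± 0.371, adjusted p = 1) and Myl7 highest (0.66 ± 0.236). Of 14 neutrophil genes 1 rose, Lcn2, against 2.62% of all probe sets, with a list median of 0.04. S100a8 and S100a9 were among those that did not pass. Since levels are centred, which of these markers is absent cannot be read. Their part in the shared response was not tested.

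Of 12 pericyte and smooth muscle genes 3 rose, Cnn1, Tagln and Des. The first 2 of these also belong to the contractile list. The median of the 12 was 1.00 in aCF and -0.53 in EpiSC, and the EpiSC list medians per array (-0.82 to -0.08) overlapped those of CF (-0.80 to 0.18). Des, which encodes desmin, read -1.27, -1.04, -1.03, -1.03 and -1.04 in CF, -0.31, 0.00, -0.39, 0.25 and 0.07 in aCF, and 1.56, 2.00, 1.55, 1.23 and 1.69 in EpiSC, and rose by 1.85 ± 0.12 (adjusted p = 5.68e-06). Vtn lay lowest (-1.28 ± 0.189, adjusted p = 0.18). Of 20 endothelial genes 1 fell, against 1.25% of all probe sets. This was Cdh5 (VE-cadherin), by 1.90 (SE 0.216, adjusted p = 0.00824), a call lost without CF1, CF4 or CF5 and under quantile normalization. The call was lost too with the array number fitted as a block and with the infarct arrays as 1 group.

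The endothelial list had a median of -0.06 in aCF and -0.64 in EpiSC. Its extremes were Tek, an endothelial receptor kinase, at -1.91 ± 0.313 (adjusted p = 0.561) and Flt4 at 0.52 ± 0.0877 (adjusted p = 0.674). Of 19 mesothelial and epicardial genes 4 rose and 1 fell (Efemp1), with a median of 0.06 in aCF and 1.36 in EpiSC. These rises were Dmkn, a secreted epithelial protein, Slc9a3r1, a scaffold of microvilli, and, named after their values were seen, the epicardial transcription factor Wt1 and Nkain4. Wt1 stood at 0.17 in aCF and 2.18 in EpiSC from CF, and Nkain4 at 0.07 and 3.24. Of these 4, Dmkn passed in aCF alone (2.41 ± 0.3, adjusted p = 0.0242). Its aCF values were 0.00, -0.37, 1.16, 0.13 and -1.04, all above the highest CF value of -1.84. Whether a share of epicardial cells in the aCF samples supplied this RNA was not tested.

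The size of the shared response was compared between the populations by the contrast of EpiSC with aCF, which does not use the CF arrays. Over all 22206 probe sets it passed for 369 (1.66%), and among the 858 for 146. The 858 were picked with the same estimate of spread, so the 2 shares are not compared. EpiSC lay farther from CF in 131 of the 146 and aCF in 15, and the same held among rises (92 against 13) and among falls (39 against 2). For 621 of the 858, 416 rises and 205 falls, the 95% interval of the difference lay within 1 log2 unit on either side of 0. The share of all probe sets within this bound is not given here. The largest differences were in genes that stood much farther from CF in EpiSC.

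Serpinb2, an inhibitor of plasminogen activators, read -0.94, -0.88, -1.11, -0.68 and -0.89 in CF, 0.50, 0.00, -0.40, 0.57 and -0.24 in aCF, and 5.52, 4.70, 4.60, 5.46 and 5.24 in EpiSC. The aCF arrays lay just above CF and the EpiSC arrays far above both. EpiSC exceeded aCF by 5.02 ± 0.213 (adjusted p = 1.6e-08). Cxcl13 (4.23 ± 0.465, adjusted p = 0.00549), Lcn2, which sequesters bacterial iron carriers (3.76 ± 0.262, adjusted p = 1.44e-05), and Dmkn (3.64 ± 0.3, adjusted p = 0.000136) followed. In the other direction were falls deeper in EpiSC, Cd36 (-2.45 ± 0.268, adjusted p = 0.00501), Syn2, a synapsin (-2.27 ± 0.244, adjusted p = 0.00409), and Cdh5 (-1.96 ± 0.249, adjusted p = 0.0324). Syn2 is the least secure of these as a shared fall, since its combined call (-1.69 ± 0.211, adjusted p = 0.0255) was lost in 10 of 15 omissions.

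**Figure D5:**
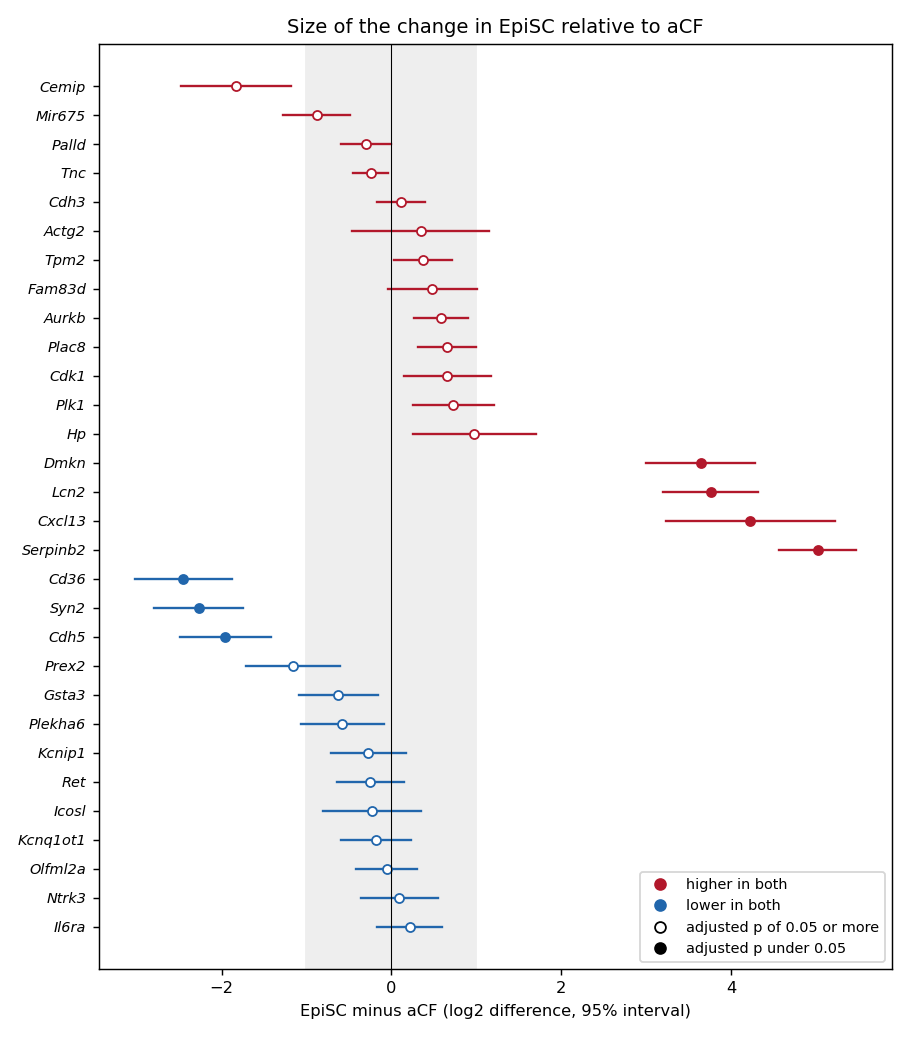
Points give the EpiSC minus aCF difference (horizontal axis, log2) with its 95% interval for 30 named genes that moved the same way, red for genes higher and blue for genes lower in both populations, filled where the difference passed the threshold. The grey band spans 1 log2 unit on either side of 0. The intervals of Cdh3, Tnc, Palld, Olfml2a and Il6ra lie within the band, and those of Serpinb2, Cxcl13, Lcn2, Dmkn, Cd36, Syn2 and Cdh5 lie outside it.

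When the 10 infarct arrays were instead fitted as 1 group, so that the difference between the populations counted as spread, 305 probe sets were higher and 130 lower. The calls of 29 named genes were lost by that fit, among them Gins2, Cd44, Tpi1, Slc16a3, Irf7, Cxcl5, Des, Lcn2, Dmkn, Serpinb2, Saa3, Entpd2, Gstt1, Fabp5, Ppbp and Cd36. The 5 markers kept theirs. Of the 79 named genes past the threshold 42 stayed past it, in the same direction, in all alternative fits run, including every omission of an array, and 0 changed direction in any of them. Under quantile normalization of the values 685 probe sets were higher and 177 lower in both, beside 581 and 277 as deposited.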

How the data were processed

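Whole-transcript mouse arrays measured RNA of 5 CF, 5 aCF and 5 EpiSC samples. The deposited values are log2 expression (base inferred); the authors summarised and quantile-normalized them in GeneSpring GX 12.5, per the series' design text, and each probe set has a median of 0 over the arrays. Raw signals were not used here, so signal over background is unknown and the number of arrays limits the precision.

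Identifiers stood 6900 rows from their values. This offset gave the highest mean correlation of within-group deviations among 77 cell cycle genes (0.148, against 0.0500 at the next of 9480 offsets and 0.000368 as deposited), and 3 more rows were needed on chromosomes 10 and 11. Because cell cycle genes chose the offset, their covariation within groups is not independent of it. The 1101 probe sets of olfactory and vomeronasal receptor genes, not used for the choice, had a median SD of 0.101 when paired and 0.173 as deposited. Of 22206 rows 15303 were paired. GEO's platform annotation gave 19572 of all rows 1 symbol, 0 several and 2634 none.

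limma 3.58.1 (R 4.3.3) fitted 3 group means to all rows, with 2-sided moderated tests and Bonferroni adjustment at 0.05. Tables and figures used Python 3.11.15, pandas 2.3.3 and matplotlib 3.10.9, and the fit was tested on simulated data. Members and lists were chosen with earlier results of these data known. Genes were named by rule: the 5 markers; the 10 rises and 10 falls farthest from CF in both populations among genes that passed in each population alone with no overlap of arrays; per list, the 2 lowest adjusted p among those that moved, the largest that did not pass and the extremes; and the 4 largest differences each way between the populations. Il6, Saa3, Penk, Mki67 and others said to be so were chosen after their values were seen. Other normalization, variance, weighting, grouping, adjustment and omission of arrays were tried. Promoters came from RefSeq (GRCm38.p6).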

Additional observations from a re-analysis of the deposited data

Results flagged for a closer look

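In 24 of 357 groups of 5 arrays, over the 119 named genes, the highest or lowest array lay far from the other 4 by Dixon's 95% criterion. Chance alone gives about 1 in 20 such groups. These arrays lay in 22 genes. CF4 was high for Cdk1 (-2.65), Mki67 (-1.18) and Cxcl13 (-0.43). Cdk1 and Mki67 are cell cycle genes, whose covariation within groups was used to pair names with values. CF1 was low for Ntrk3 (1.41) and Des (-1.27) and high for Itga8 (1.99). CF5 was high for Fam83d (-2.61) and low for P4ha3 (-2.54). CF3 was low for Cemip (-3.47) and low for Flt4 (-0.53), and CF2 was low for Lcn2 (-2.09).

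Among EpiSC arrays, EpiSC4 was high for Cemip (1.87), Tpm2 (0.86), Tagln (0.72) and Cnn1 (1.85), of which the last 3 are contractile genes. EpiSC3 was high for Cxcl13 (5.26) and low for Colgalt2 (-2.23), EpiSC1 was high for Tpi1 (0.68), and EpiSC2 was high for Cd8a (0.24). Among aCF arrays, aCF2 was low for Plk1 (-0.55) and Spon1 (-0.68), aCF4 low for Bub1 (-1.1), aCF5 low for Smc4 (-0.35) and aCF3 high for Alas2 (0.26).

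The difference from CF was unequal in the populations for 26 named genes by limma's test of EpiSC minus aCF. Over all 22206 probe sets 369 (1.66%) passed this test. The genes named for the largest differences between the populations had to pass it to be named, so the count of 26 is not set against that share. EpiSC was higher for Serpinb2 (5.02), Cxcl13 (4.23), Lcn2 (3.76), Dmkn (3.64), Ppbp (3.15), Saa3 (2.58), Cd44 (2.43), Slc9a3r1 (2.41), Myl7 (2.38), Oas2 (1.77), Des (1.68), Tnfaip6 (1.67), Pdgfc (1.40), Slc16a3 (1.24), Efemp1 (1.18), Irf7 (1.08), Gins2 (1.06) and Tpi1 (0.61). EpiSC was lower for Cd36 (-2.45), Syn2 (-2.27), Bdnf (-2.14), Itga11 (-2.03), Cdh5 (-1.96), Vtn (-1.95), Mfap4 (-1.13) and Entpd2 (-0.92).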

How the results depend on the processing

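Robust variance estimates, array weights and a fit on the named probe sets only kept all 5 counts of probe sets within 1.5 times the reported ones. Averaging infarct arrays of the same number did so for the 3 counts it gives, and like the fit of the infarct arrays as 1 group it gives no value for each population alone or for EpiSC minus aCF. Quantile normalization left 177 probe sets lower in both, against 277. With the infarct arrays as 1 group 435 passed, 305 higher and 130 lower. Without aCF4 and aCF5 160 were lower, 141 passed in each population alone and 96 differed between EpiSC and aCF. Under Benjamini-Hochberg adjustment 6362 passed, with 2802 higher, 3407 lower, 2654 in each population alone and 1745 differing between the populations.

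Over the 15 omissions of an array 561 to 844 passed, 413 to 546 were higher, 147 to 294 lower, 188 to 258 passed in each population alone and 95 to 169 differed between them. The lowest count passing came without CF3 (567 without CF2), and the lowest count differing without aCF1.

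Whether arrays of the same number share a heart is not known. Correlations of the deviations of same-numbered arrays ran from -0.0220 to 0.156 and were not above 0.1 in every pair, so the number was not used as a block in the reported fit. With the number as a replicate block 524 passed, 388 were higher and 133 lower, 179 passed in each population alone and 77 differed between them, and 17 named genes lost their call. The 17 were Itga8, Ssr3, Sec61a1, Cox5a, Fabp5, Ppbp, Cdh5, Cd36, Syn2, Penk, Spon1, Col4a3, Colgalt2, Ces1d, Pgk1, Tgfbr3 and Efemp1. With infarct arrays of the same number averaged, 8 named genes lost theirs: Lpl, Ssr3, Sec61a1, Cox5a, Syn2, Spon1, Kdelr2 and Pgk1. Smc4 and Spi1, which had not passed, turned sign: Smc4 (-0.05) read 0.0092 under quantile normalization, 0.0033 without aCF4 and aCF5 and 0.0295 without CF1 (-0.128 to 0.0295 over the omissions), and Spi1 (-0.07) read 0.0008 under quantile normalization and 0.0135 without CF3 (-0.139 to 0.0135 over the omissions). The causes were not tested.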
